A study of Mus musculus with 8 samples.

Results

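A group of 10 imprinted genes was followed here through CTCF and cohesin maps of mouse embryonic stem cells: Peg3, Mest, Peg10, Sgce, Plagl1, Nnat, Gnas, Grb10, Igf2r and Airn. All 10 were found by symbol among the 49943 genes that the RefSeq table of GRCm38 places on the assembled nuclear chromosomes. Each was taken with 50 kb to either side, and windows that met were joined, so that Peg10 with Sgce and Igf2r with Airn left 8 loci of 1320 kb in total. A peak belonged to a locus by its summit, and its place was a gene end (within 1 kb of either end of a listed gene), a gene body or a flank. The loci held 58 of 82227 CTCF peaks and 23 of 25734 Smc3 peaks of the tagged line C59, and 64 of 98759 CTCF peaks and 40 of 47281 Smc3 peaks of the wild type (WT).

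The libraries were chromatin immunoprecipitations (ChIP-seq) from the mouse embryonic stem cell line JM8.N4, kept feeder-free on gelatin with fetal bovine serum and LIF. C59 is a clone whose CTCF alleles both carry a FLAG-Halo tag and whose alleles of Rad21, the kleisin subunit of cohesin, both carry SNAPf-V5; WT is JM8.N4 without tags. By the antibody labels, both lines were probed with the same antibodies to CTCF and to Smc3, a core subunit of cohesin, in 1 library per line and protein. The protocol names Rad21, which is tagged in C59, where the labels name Smc3, and the labels were followed. There were no replicates, so differences between C59 and WT have no replicate spread beside them, and none was tested. C59 is 1 clone, so the tags and the clone cannot be told apart. Peak lists hold no expression values, so neither the tags nor the stem cell identity was checked, and they do not separate the parental alleles. They carry no read totals either, and a place without a peak was below the threshold of the deposited list, where the protein may still have been there. Fold enrichment, the deposited ratio of a summit's pileup to its local background, describes strength within a list. Shares are followed by their exact 95% interval (Clopper-Pearson), which covers only the counting error.

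Imprinted genes are expressed from 1 parental allele, as laid down by DNA methylation in the germ line. CTCF, a zinc finger protein, binds some of its sites only when they are unmethylated, which lets an imprinted site carry CTCF on a single allele. Cohesin extrudes chromatin loops and is held up at CTCF, so CTCF sites mark the loop anchors that can join a promoter to an enhancer or part them. Most of the 10 genes bear on growth: Igf2r, Grb10, Plagl1 and Gnas act in growth factor and hormone signalling, Peg10 is needed for the placenta, and Peg3 and Mest take part in growth and maternal care.

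Most CTCF sites of these loci stood in both lines. In C59, 55 of the 58 CTCF peaks (94.8%, 85.6 to 98.9) shared 1 bp or more with a CTCF peak of WT, where 97.1% of the whole C59 list did. In WT, 55 of the 64 (85.9%, 75.0 to 93.4) had a C59 counterpart, where 79.8% of the whole WT list did. Both intervals span the share of the whole list. Summits of shared sites lay a median of 19 bp apart, at most 408 bp. The 9 sites seen in WT alone had folds of at most 7.79 and a median of 4.42, against 13.3 for those found again. All 33 WT peaks at or above the median fold of their list were found in C59, as were 99.9% of such peaks in the whole list.

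The C59 list, shorter as a whole, had fewer Smc3 peaks at these loci. All 23 C59 Smc3 peaks (100%, 85.2 to 100) had a counterpart in WT, as did 98.1% of the whole C59 list. In WT, 22 of the 40 (55.0%, 38.5 to 70.7) had a counterpart in C59, beside 52.9% of the whole WT list. Those found again had a median WT fold of 8.61, and the 18 seen in WT alone had 3.38 and at most 5.10. At or above the median fold of the WT list all 17 peaks were found, while in the whole list 84.0% of such peaks were. Below it 5 of 23 (21.7%, 7.46 to 43.7) were found, against 21.9% of the whole list. Of the 18 peaks seen in WT alone, 9 lay at Nnat. Without that locus, an alternative chosen after seeing the data, 19 of 28 WT Smc3 peaks (67.9%, 47.6 to 84.1) had a C59 counterpart. The order of the counts changed at equal list length: with the 25734 strongest peaks of each list by p-value, the loci held 23 C59 and 19 WT Smc3 peaks, and 18 of those 19 (94.7%) were found in C59. Among WT Smc3 peaks of the loci with a −log10 q of at least 10, 85.0% were found. The share of the whole list at these settings is not given here, so these shares are not read as particular to the loci.

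**Figure D1:**
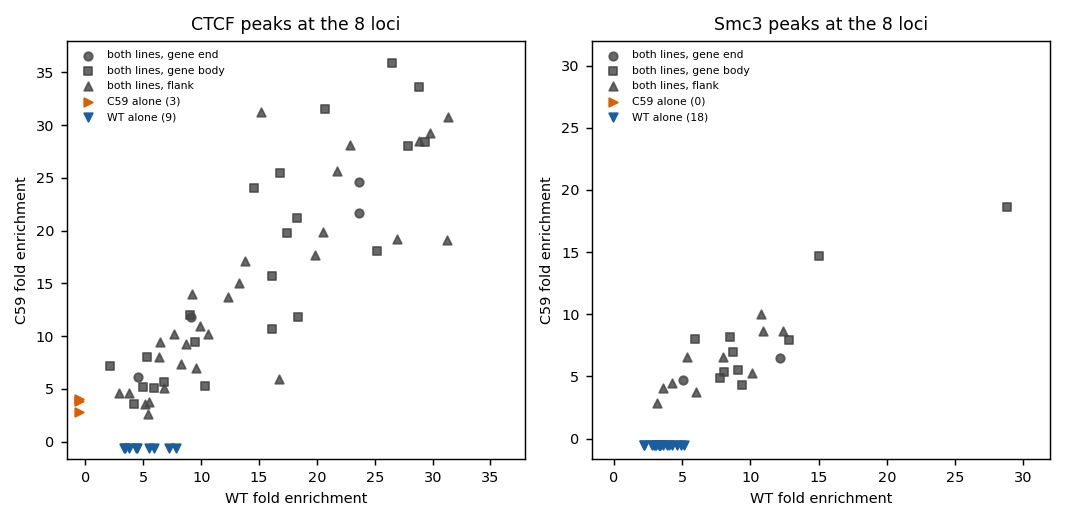
Fold enrichment of each peak at the 8 loci, WT on the horizontal and C59 on the vertical axis (linear scales, deposited values that were scaled separately for each list), with CTCF at the left and Smc3 at the right and symbols for gene ends, bodies and flanks. Peaks of 1 line alone sit beside the axes: 3 C59 and 9 WT CTCF peaks and 0 C59 and 18 WT Smc3 peaks, all of low fold.

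Split by overlap with CTCF, all 23 C59 Smc3 peaks (100%, 85.2 to 100) lay on a C59 CTCF peak, beside 97.9% of the whole C59 list, and 35 of 40 WT Smc3 peaks (87.5%, 73.2 to 95.8) lay on a WT CTCF peak, beside 95.2% of the whole WT list. The other 5 WT peaks all lay at Nnat, and at the remaining 7 loci 28 of 28 WT Smc3 peaks were on CTCF. Seen from CTCF, 23 of 58 C59 peaks (39.7%, 27.0 to 53.4) carried Smc3, beside 30.0% of the whole list, and 34 of 64 WT peaks (53.1%, 40.2 to 65.7), beside 44.3%. Among the 55 WT CTCF peaks found in C59, Smc3 stood in both lines at 23 (41.8%, beside 30.8% of all such peaks), in WT alone at 10 (18.2%, beside 23.2%), in C59 alone at 0 (beside 0.43%) and in neither line at 22 (40.0%, beside 45.5%). Summits of overlapping CTCF and Smc3 peaks lay a median of 32 bp apart in C59 and 28.5 bp in WT.

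**Figure D2:**
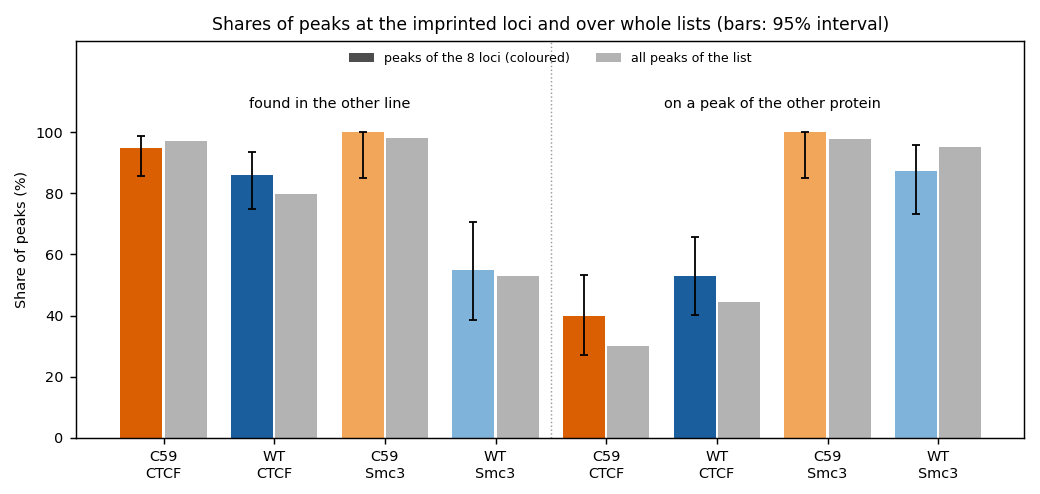
Shares of peaks in percent, with the 8 imprinted loci in colour and the whole peak list in grey, for each list on the horizontal axis; error bars are exact 95% intervals. The grey bars fall inside the intervals of the loci in all 8 comparisons.

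**Figure D3:**
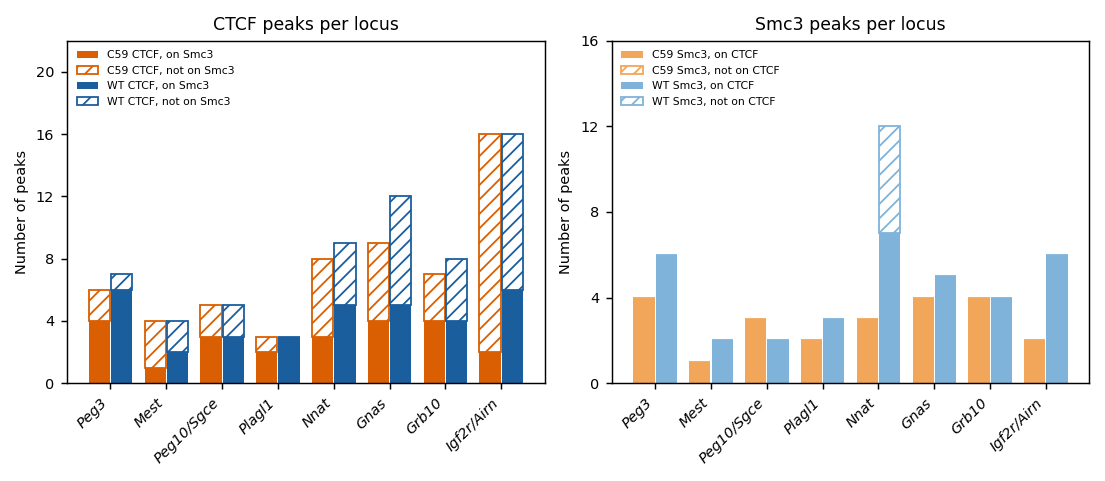
Number of CTCF peaks (left) and Smc3 peaks (right) at each locus, C59 beside WT, filled where the peak overlapped the other protein in the same line and hatched where it did not. Igf2r with Airn had 16 CTCF peaks in each line but 2 Smc3 peaks in C59 and 6 in WT, and the hatched part of Smc3 is 5 WT peaks at Nnat.

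Gene ends held 6.9% of the C59 and 7.81% of the WT CTCF peaks of these loci. For Smc3 they held 8.7% in C59 and 7.5% in WT. The end windows cover only a small part of the 1320 kb, so these shares do not show that ends are avoided. A CTCF summit lay within 1 kb of an end at 5 of the 10 genes in C59 and 6 in WT, beside 32.9% in C59 and 38.3% in WT of 21887 protein-coding genes, and a Smc3 summit at 2 in C59 and 3 in WT, beside 11.2% in C59 and 20.8% in WT. With the 25734 strongest peaks of each list by p-value, CTCF stood at the ends of 2 genes in each line and Smc3 at 2 in C59 and 1 in WT. For lists cut to this length the shares of all genes are not given here, so the lower counts are not read as particular to the listed genes. Sgce and Peg10 share their peak, so the counts over the whole lists stand for 4 different CTCF peaks in C59 and 5 in WT. The genes were Mest, Peg10, Sgce, Nnat and Gnas in both lines and Peg3 in WT alone for CTCF, and Mest and Gnas in both lines and Peg3 in WT alone for Smc3. Plagl1, Grb10, Igf2r and Airn had neither protein within 1 kb of an end. Of the 58 C59 and 64 WT CTCF peaks, 25 in C59 and 27 in WT lay in gene bodies, and 29 in C59 and 32 in WT in flanks. The median window of the 10 genes held 3.61 C59 and 3.67 WT CTCF peaks per 100 kb, beside medians of 5.57 in C59 and 6.72 in WT over all protein-coding genes, and 1.29 C59 and 1.88 WT Smc3 peaks, beside 1.61 in C59 and 2.97 in WT. In each of the 4 lists the median of the listed genes lay between the quartiles of all genes.

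**Figure D4:**
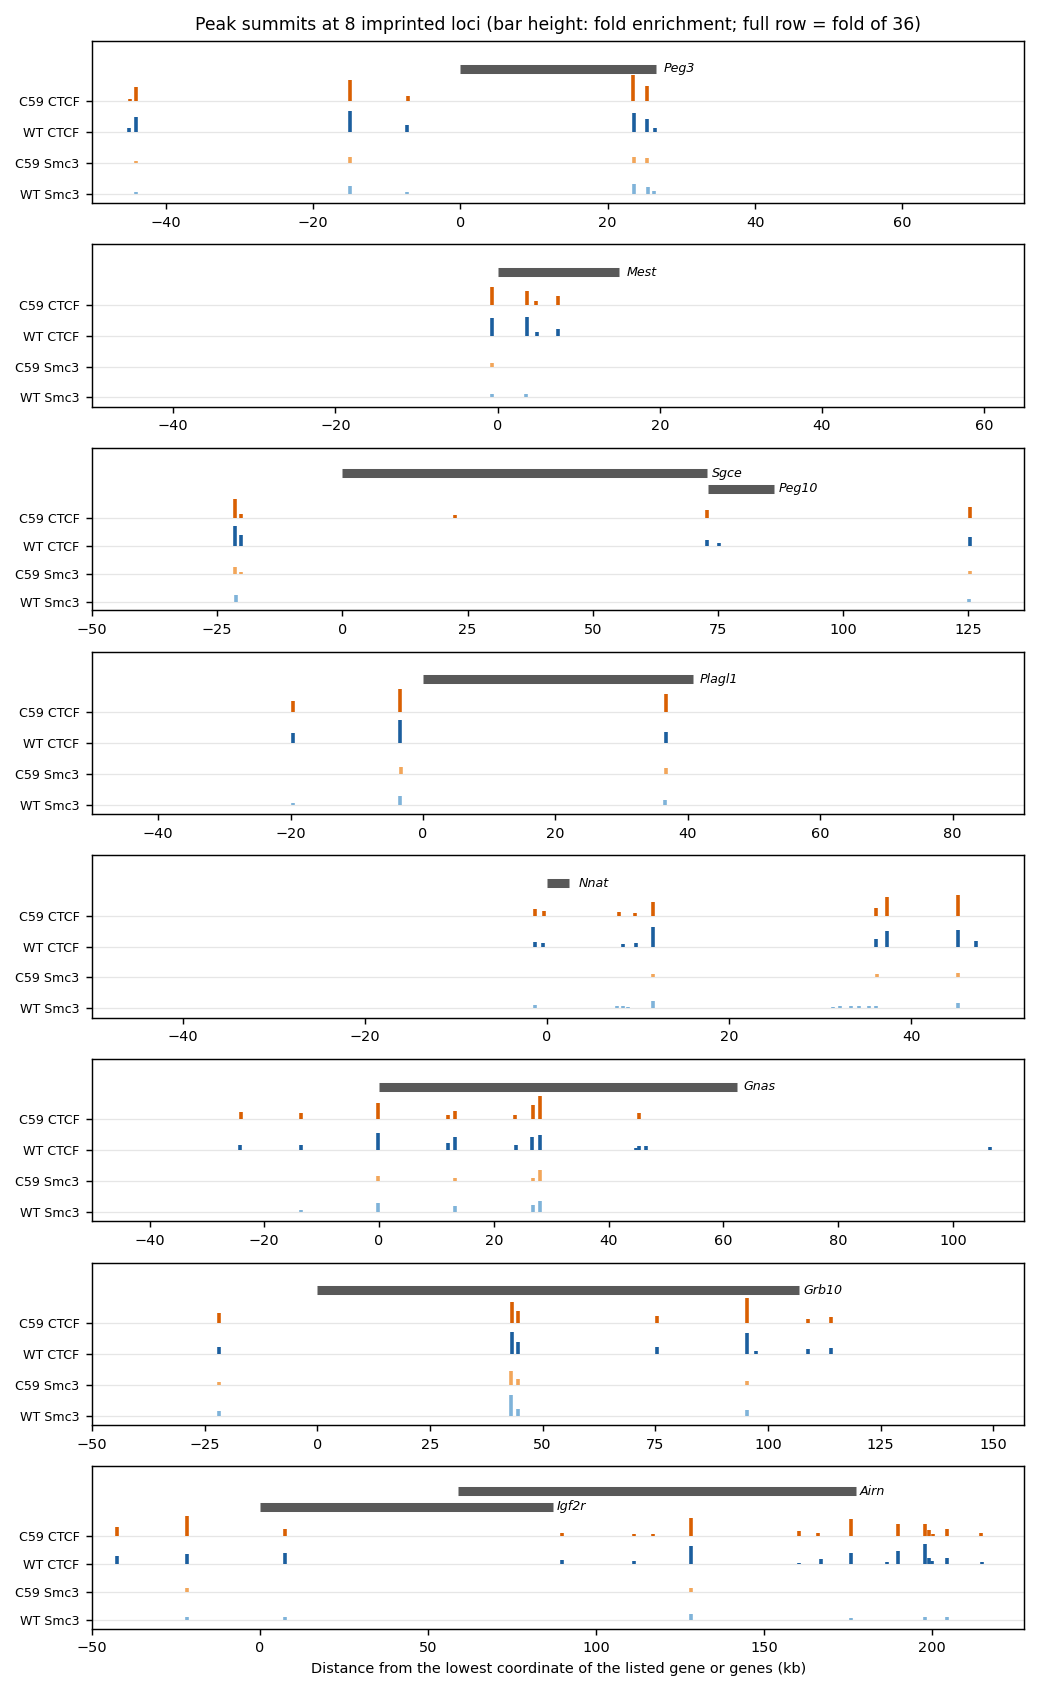
Peak summits at the 8 loci, by distance in kb from the lowest coordinate of the listed gene or genes (grey bars), in rows for C59 CTCF, WT CTCF, C59 Smc3 and WT Smc3; the height of each bar is the deposited fold enrichment on a linear scale. The CTCF rows of the lines share most positions at each locus, and the widest stretch without a peak of any list, 82.4 kb, lies across the overlap of Igf2r and Airn.

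Gnas, on chromosome 2 from 174284320 to 174346744, was the gene with a promoter window that peaks of all 4 lists overlapped. It encodes the stimulatory G protein alpha subunit and, from other first exons, further proteins; in mouse the most upstream promoter drives the maternally expressed Nesp transcript, the most downstream one the G protein itself, and an antisense RNA, Gnasas1, is made from the paternal allele. At the most upstream start CTCF had a fold of 21.7 in C59 and 23.6 in WT, and Smc3 had 6.46 in C59 and 12.2 in WT. The summits lay between 123 and 159 bp before that start in all 4 lists. Inside the gene, 28.0 kb downstream, a CTCF site of 31.5 in C59 and 20.7 in WT carried the strongest Smc3 peak of the locus, at 14.7 in C59 and 15.0 in WT. Only 1.26% of the C59 Smc3 list and 4.07% of the WT list were stronger. A site next to it had CTCF at 19.8 in C59 and 17.4 in WT, with Smc3 at 4.31 in C59 and 9.38 in WT, and another body site had CTCF at 11.8 in C59 and 18.4 in WT, with Smc3 at 4.85 in C59 and 7.75 in WT. At the most downstream start CTCF was weaker, at 8.07 in C59 and 5.31 in WT, with its summit 0.327 kb before the start in C59 and 0.33 kb in WT, and no Smc3 peak stood there in either line. WT alone had CTCF peaks of 3.31 and 5.89 beside that start and of 3.77 in the flank.

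The promoters of these genes were read where RefSeq gives them, in windows of 300 bases from 250 before to 50 after a start on GRCm38.p6. Of the 10 genes, 8 matched, with 14 windows, some of them nearly the same; Peg10 and Sgce had no entry. CTCF peaks of both lines overlapped windows at 4 different starts. The 250 bases before each of these starts are printed 5′ to 3′ on the strand of the gene. Only the stretch of the most upstream Gnas start holds the CTCF summits. At the other starts the peaks reach into the stretch while their summits lie outside it. Capitals mark matches, on either strand, to a relaxed CTCF core motif of 11 bases: C, 3 free bases, AG, 2 free bases and GGC.
Gnas most upstream start, chr2:174284070-174284319, plus strand: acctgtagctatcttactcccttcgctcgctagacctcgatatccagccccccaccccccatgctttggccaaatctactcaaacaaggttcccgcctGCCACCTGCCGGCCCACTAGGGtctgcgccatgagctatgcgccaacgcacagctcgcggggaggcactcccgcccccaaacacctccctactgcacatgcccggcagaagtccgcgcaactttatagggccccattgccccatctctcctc
Gnas most downstream start, chr2:174329756-174330005, plus strand: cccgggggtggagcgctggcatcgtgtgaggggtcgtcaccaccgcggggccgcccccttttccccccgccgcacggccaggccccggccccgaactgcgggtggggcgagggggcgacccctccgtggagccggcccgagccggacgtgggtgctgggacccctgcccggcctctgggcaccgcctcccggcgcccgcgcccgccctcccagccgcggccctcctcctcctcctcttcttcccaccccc
Mest second start, chr6:30737800-30738049, plus strand: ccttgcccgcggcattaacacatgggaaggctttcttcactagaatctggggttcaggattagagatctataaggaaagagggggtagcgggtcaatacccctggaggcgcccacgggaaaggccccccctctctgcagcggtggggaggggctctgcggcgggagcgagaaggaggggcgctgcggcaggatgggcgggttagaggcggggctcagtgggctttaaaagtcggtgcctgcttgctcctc
Nnat start, chr2:157559828-157560077, plus strand: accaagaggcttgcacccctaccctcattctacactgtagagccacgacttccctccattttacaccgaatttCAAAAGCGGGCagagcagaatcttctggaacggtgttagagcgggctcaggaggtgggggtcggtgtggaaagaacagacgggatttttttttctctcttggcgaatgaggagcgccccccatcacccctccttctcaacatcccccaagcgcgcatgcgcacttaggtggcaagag
The window at the most upstream Gnas start held 2 adjoining matches, both on the strand opposite to the gene, CGGCAGGTGGC from 174284168 to 174284178 and CCCTAGTGGGC from 174284179 to 174284189. The centre of the match that starts at 174284168 lay 24 bp from the C59 and 1 bp from the WT CTCF summit, and 9 bp from the C59 and 12 bp from the WT Smc3 summit. The centre of the other match lay 13 bp from the C59 and 10 bp from the WT CTCF summit, and 2 bp from the C59 and 23 bp from the WT Smc3 summit. At Nnat the match lay 193 bp from the C59 and 277 bp from the WT CTCF summit. A window not printed, at an internal Grb10 start on the minus strand of chromosome 11, held CTGTAGATGGC from 12027958 to 12027968 on the strand opposite to the gene, 13 bp from a CTCF summit of WT alone. The windows of the most downstream Gnas start and of the second Mest start held none. The CTCF summits there lay outside these windows, where no sequence was read. The relaxed form stood in 6 of the 14 windows. Of the others with a match, the Igf2r window lay far from CTCF, with the match 2544 bp from the C59 and 2482 bp from the WT summit, and overlapping windows of neighbouring Gnas starts (174327749 and 174327768) held the same matches, so that these are counted in both. The 6 windows stand beside 22.6% of 32851 promoter windows in the table, 57.0% of those with a C59 CTCF summit and 54.6% of those with a WT CTCF summit. The stricter core motif of 12 bases (CCA, 2 free bases, AG, 2 free bases and GGC), whose matches all contain the relaxed form, stood in 0 of the 14, beside 2.43% of all windows, 14.7% of those with a C59 CTCF summit and 13.4% of those with a WT one. The 14 windows were counted with or without a summit. The most upstream Gnas window held CTCF summits of both lines and the internal Grb10 window one of WT, and the other windows held none. The shares of windows with a summit are therefore not a like comparison for the 14. A match is a description of letters and not a shown binding site.

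Grb10, on chromosome 11 from 11930499 to 12037428, encodes an adaptor that restrains insulin and growth factor receptors, and is expressed from the maternal allele in most tissues and from the paternal allele in neurons. Its body held the strongest Smc3 peak of all 8 loci, with a fold of 18.6 in C59 and 28.8 in WT; only 0.229% of the C59 Smc3 list and 0.0613% of the WT list were stronger. That site lay 43.0 kb from the lower end of the gene, on CTCF of 28.4 in C59 and 29.3 in WT, and a CTCF site beside it had 15.7 in C59 and 16.1 in WT, with Smc3 at 8.18 in C59 and 8.53 in WT. Another strong site, 2.12 kb downstream of an internal start by the C59 CTCF summit, had CTCF at 33.6 in C59 and 28.8 in WT and Smc3 at 5.32 in C59 and 8.09 in WT. At that internal start itself a weak CTCF peak of 4.42 stood in WT alone. The outer start had no peak within 1 kb, and its nearest CTCF summit lay 1.98 kb upstream in C59 and 1.94 kb in WT. All 4 WT Smc3 peaks of Grb10 were found in C59. The background that pileup and fold imply had a median of 6.00 at the C59 and 7.39 at the WT CTCF peaks of Grb10. Over the autosomes other than 1, 8 and 11 it was 4.00 in C59 and 4.98 in WT. Those chromosomes were left out by a choice made beforehand, and their own background is not given here. For Smc3 the implied background at Grb10 was 5.41 in C59 and 6.58 in WT, against 4.00 in C59 and 5.09 in WT. The part of the background in the fold values was not tested. Other loci also lay above these medians of the autosomes, with 6.00 for C59 Smc3 at Nnat and 6.79 for WT Smc3 at Igf2r and Airn.

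Igf2r and Airn overlap on chromosome 17. Igf2r (12682406 to 12769706), the receptor that clears the growth factor Igf2, is expressed from the maternal allele, and Airn (12741311 to 12859884) is the long non-coding RNA of the paternal allele that runs against it and silences it in mouse. Each line had 16 CTCF peaks over 277 kb, or 5.77 per 100 kb, of which 14 were found in the other line. Smc3 had 2 peaks in C59 (0.721 per 100 kb) and 6 in WT (2.16 per 100 kb), both C59 peaks at WT sites. The longest stretch between neighbouring summits of any list at the 8 loci ran 82.4 kb from inside Igf2r across the Airn start and the Igf2r start. The CTCF summit nearest to the Airn start lay 31.0 kb away in C59 and 30.9 kb in WT, and nearest to the Igf2r start 2.56 kb upstream in C59 and 2.50 kb in WT, at folds of 5.13 in C59 and 5.89 in WT. Within the body of Airn, beyond Igf2r, CTCF had 28.0 in C59 and 27.9 in WT at a site with Smc3 of 5.55 in C59 and 9.08 in WT, and their Smc3 summits stood at the same base.

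At 4 further sites of this locus CTCF stood in both lines and Smc3 in WT alone. The strongest of them by WT fold, in the flank 20.5 kb beyond Airn, had CTCF at 19.1 in C59 and 31.2 in WT with WT Smc3 at 5.10. Near the far end of Airn CTCF had 25.5 in C59 and 16.8 in WT with WT Smc3 at 3.39, and inside Igf2r 10.7 in C59 and 16.1 in WT with WT Smc3 at 4.22. Another flank site had CTCF at 11.0 in C59 and 9.88 in WT with WT Smc3 at 4.06, while CTCF of 17.7 in C59 and 19.8 in WT stood without Smc3 in either line. C59 alone had weak CTCF peaks of 2.77 and 4.06 in Airn, and WT alone had peaks of 7.79 in Airn and 3.38 in the flank.

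Peg3 and Plagl1 encode zinc finger proteins and are expressed from the paternal allele. At Peg3, on chromosome 7 from 6703892 to 6730462, the body sites lay close to the start, on the minus strand, with C59 CTCF summits 3.08 kb and 1.21 kb inside the upper end of the gene. These 2 sites had CTCF at 35.9 in C59 and 26.5 in WT, and at 21.2 in C59 and 18.3 in WT. Smc3 on the stronger of them had 7.90 in C59 and 12.8 in WT, and on the other 6.99 in C59 and 8.69 in WT. The fold of 35.9 was the highest of all C59 CTCF peaks at the 8 loci. Closer to the start, which lies beside that of Usp29, a peak of CTCF (5.53) and of Smc3 (3.38) stood in WT alone. In the flank, a site inside Zim1 had CTCF at 28.5 in C59 and 28.8 in WT and Smc3 at 8.66 in C59 and 10.9 in WT, and a site inside Zim2 had CTCF at 19.9 in C59 and 20.5 in WT and Smc3 at 2.86 in C59 and 3.16 in WT.

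Plagl1, on chromosome 10 from 13090832 to 13131694, had 3 CTCF peaks in each line, all shared. The strongest lay 3.43 kb upstream of the start in both lines, with CTCF at 30.8 in C59 and 31.3 in WT and Smc3 at 8.69 in C59 and 12.4 in WT. A body site had CTCF at 24.0 in C59 and 14.6 in WT and Smc3 at 8.00 in C59 and 5.91 in WT. A flank site had CTCF at 15.0 in C59 and 13.3 in WT, with a Smc3 peak of 3.03 in WT alone. No peak of any list lay in the 40.0 kb between the upstream and the body site, the start of Plagl1 included.

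Mest, on chromosome 6 from 30733506 to 30748466, encodes a hydrolase-like enzyme expressed from the paternal allele. It was the locus with no peak outside the gene and its start. Upstream of its first start, at 711 bp in C59 and 700 bp in WT, CTCF had 24.6 in C59 and 23.6 in WT and Smc3 4.68 in C59 and 5.08 in WT. In the body CTCF had 18.1 in C59 and 25.2 in WT at a site with Smc3 of 4.88 in WT alone. The other body sites had no Smc3 in either line. They stood at 12.0 in C59 and 9.05 in WT, within 1 kb of the microRNA gene Mir335, and at 5.20 in C59 and 4.95 in WT, 0.248 kb downstream of the second start in C59 and 0.274 kb in WT.

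Sgce, which encodes epsilon-sarcoglycan, and Peg10, a gene derived from a retrotransposon, are known to be transcribed in opposite directions from a shared promoter, and their ends lie 102 bp apart on chromosome 6 (Sgce 4674350 to 4747204, Peg10 4747306 to 4760517). CTCF stood there at 11.8 in C59 and 9.12 in WT, with no Smc3 peak in either line. The nearest Smc3 peaks lay in the flanks on either side. Beyond the other end of Sgce, CTCF had 29.3 in C59 and 29.8 in WT with Smc3 at 10.0 in C59 and 10.8 in WT, and beyond Peg10, CTCF had 17.1 in C59 and 13.8 in WT with Smc3 at 4.45 in C59 and 4.27 in WT. Next to the first of these sites CTCF had 5.91 in C59 and 16.7 in WT. Smc3 formed a peak of its own there in C59 (3.67), where the WT list had 1 Smc3 peak of 1856 bp across both sites with its summit 1168 bp away. Sgce had a CTCF peak of 3.85 in C59 alone and Peg10 one of 4.37 in WT alone.

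Nnat, which encodes neuronatin, a small membrane protein of neurons and endocrine cells, lies within Blcap on chromosome 2 (157560078 to 157562525). CTCF stood at its start at 6.16 in C59 and 4.53 in WT, with no Smc3 peak overlapping it. A site 1.32 kb upstream of the start had CTCF at 9.49 in C59 and 6.46 in WT and Smc3 of 4.65 in WT alone. The 3 strongest CTCF sites by WT fold lay in the downstream flank. The nearest of the 3 had CTCF at 19.2 in C59 and 26.9 in WT and Smc3 at 5.26 in C59 and 10.1 in WT, and the farthest of the 3 had CTCF at 28.1 in C59 and 22.9 in WT and Smc3 at 6.54 in C59 and 7.96 in WT. The one between them had CTCF at 25.7 in C59 and 21.7 in WT and no Smc3 in either line. Weaker CTCF peaks nearer to Nnat had 4.64 in C59 and 3.72 in WT, and 3.59 in C59 and 5.16 in WT, and a peak of 7.19 farther out stood in WT alone.

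The Nnat locus held the Smc3 peaks without CTCF. Smc3 had 3 peaks in C59 and 12 in WT, and 5 of the WT peaks had no WT CTCF beneath them. Of these, 4 lay in a row over 2.92 kb, between 1.20 and 4.12 kb before the lower end of Platr27, a long non-coding RNA gene, with folds of 2.23, 3.61, 3.32 and 2.78. C59 had no Smc3 peak there. Next to the row, a Smc3 peak of WT alone (3.38) counted as on CTCF by its edge, with the 2 summits 773 bp apart. Under a rule of summits within 250 bp, 33 of the 40 WT Smc3 peaks of the 8 loci (82.5%) lay on CTCF. The fifth (2.23) lay 6.41 kb beyond Nnat. Their folds were low in the list, with between 85.3% and 99.9% of WT Smc3 peaks stronger. At a −log10 q of at least 10 none of the WT Smc3 peaks without CTCF was left at the 8 loci. At Platr27 itself Smc3 stood on CTCF in both lines, with Smc3 at 4.06 in C59 and 3.60 in WT and CTCF at 10.2 in C59 and 10.6 in WT.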

How the data were processed

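ChIP-seq peak lists of 4 of 8 libraries were used (CTCF and Smc3 in C59 and WT); the input and IgG controls were not used here. Among the tools in the submitters' processing notes are MACS2 (version 2.1.0.20140616) and Bowtie (version 0.12.8), with mm10 as the build; the control and threshold of peak calling are not given in the sources used here. The lists had no header. The authors deposited for each peak a pileup signal at the summit, a linear p-value and q-value, and a fold enrichment (a ratio to local background). Depth is unknown. The antibody labels name Smc3, whereas the protocol names Rad21, and the labels were followed.

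Genes and promoters came from RefSeq tables of GRCm38.p6. Peaks were compared in pandas 2.3.3 on Python 3.11.15, intervals came from scipy 1.17.1, and matplotlib 3.10.9 drew the plots. The overlap code was tested on simulated peaks. The implied background was pileup plus 1, divided by fold, minus 1. Overlap of at least 1 bp counted as shared, and of several overlapping peaks the one with most overlap gave the value. There was no test, as each group had 1 library. Text names all 10 genes, their end peaks, the strongest body and flank peaks of each locus (3 for CTCF, 2 for Smc3, by WT fold), peaks of C59 alone and Smc3 peaks without CTCF; other peaks were named after their values were seen. A single flank site that the rule names is not reported here. Members, lists and alternatives were chosen with earlier results of these data known.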

Additional observations from a re-analysis of the deposited data

How the results depend on the processing

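Of 99 alternative values, 77 stayed within the interval of the main share or within 1.5 times the main count. With an overlap of 50% of both peaks, 73.9% of C59 Smc3 peaks were found in WT, 69.6% of C59 Smc3 peaks lay on CTCF and 62.5% of WT ones did. With equal numbers of peaks per list (25734), the shares were 82.6% for C59 Smc3 found in WT, 94.7% for WT Smc3 found in C59 and 73.9% for C59 Smc3 on CTCF. With a −log10 q of at least 10, 20 WT Smc3 peaks were left, of which 85.0% had a C59 counterpart and 100% lay on CTCF. The share of WT Smc3 on CTCF was 96.2% with 20 kb flanks and 100% without the Nnat locus, an alternative chosen after seeing the data. Flanks of 20 kb left 15 C59 and 26 WT Smc3 peaks. Gene-end counts of the listed genes were 8 (C59 CTCF) and 5 (WT Smc3) within 2500 bp, 1 (C59 Smc3) within 500 bp, 3 (C59 CTCF) at outer starts alone, where only 8 genes had a strand, 1 (C59 Smc3) at the stricter q, and 2 (C59 CTCF), 2 (WT CTCF) and 1 (WT Smc3) with equal numbers. The relaxed motif stood in 6 windows, the stricter in 0. The cause of these shifts was not tested beyond the fewer peaks or genes that some settings leave. Shares of whole lists or of all genes are not given beside these peak shares and gene-end counts, so none is read as particular to the loci. No paired analysis was possible because each line had 1 library per protein. Depth is unknown, so lists of different length cannot be set on 1 scale.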

Other observations

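Neighbours of the 10 genes, 17 listed from textbook knowledge of these clusters and 16 matched, had CTCF at a gene end at 6 in C59 (37.5%) and 7 in WT (43.8%), beside 32.9% in C59 and 38.3% in WT of all protein-coding genes. Smc3 stood there at 1 in C59 (6.25%) and 4 in WT (25.0%), beside 11.2% in C59 and 20.8% in WT. The single neighbour with all 4 peaks was Usp29, a deubiquitinase-family gene on chromosome 7 from 6730559, beside Peg3, to 6967220. Its strongest end peaks were CTCF at 13.5 in C59 and 14.6 in WT and Smc3 at 5.29 in C59 and 6.20 in WT. They lay at the end far from Peg3. Within 1 kb of the end beside Peg3, C59 had no peak, and WT had only CTCF of 5.53 and Smc3 of 3.38. Among 34 imprinted genes elsewhere, CTCF stood at a gene end at 15 in C59 and 16 in WT and Smc3 at 7 in C59 and 11 in WT. For CTCF, the 10 genes had shares of 50.0% in C59 and 60.0% in WT, beside 44.1% in C59 and 47.1% in WT for the genes elsewhere and 32.9% in C59 and 38.3% in WT for all protein-coding genes. For Smc3, the 10 genes had 20.0% in C59 and 30.0% in WT, beside 20.6% in C59 and 32.4% in WT for the genes elsewhere and 11.2% in C59 and 20.8% in WT for all. These lists were chosen by hand, genes within them share peaks, and the differences between them were not tested.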
